A study of Comephorus dybowskii and Comephorus baikalensis and Batrachocottus nikolskii with 4 samples.

Results

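Fatty acid handling in skeletal muscle was followed through 6 gene identifiers, from the carrier protein to β-oxidation and storage, in 4 endemic sculpin species of Lake Baikal. The members were chosen by the protein titles that the study assigned to its assembled transcripts, and they are 6 of the 792 identifiers in the normalized tables. They comprise 2 identifiers titled heart fatty acid-binding protein (*FABP3*), the long-chain fatty acid-CoA ligase ACSBG2, the mitochondrial 3-ketoacyl-CoA thiolase, carnitine O-acetyltransferase b and perilipin-2. The 792 identifiers are themselves those that the study had called between species of these same libraries, so a difference between species was a condition of entering the tables.

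The libraries were prepared from muscle of wild-caught adult fish of the pelagic *Comephorus dybowski* and *Comephorus baicalensis*, which live in the water column, and of the benthic *Batrachocottus nikolskii* and *Batrachocottus multiradiatus*, which live on the bottom. RNA of the individuals of a species was pooled before sequencing (15 fish in the labels, more in the study's methods), which gave 1 library per species and no measure of variation between fish. The species of a genus therefore served as its 2 samples, and genus, habitat and ancestry cannot be told apart. Estimated reads totalled 54508410 to 59156409 per library. A value in CPM is a read estimate scaled to the library size that the authors had adjusted, it is not scaled to transcript length, and levels are compared here between libraries for the same identifier only. Each species was assembled on its own, and Trinity numbers genes anew in every assembly, so an identifier need not stand for the same gene in all 4 species. This was not tested, and every difference between species given below is a difference in the reads counted under an identifier, which can compare different genes.

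Titles of skeletal muscle proteins (fast myosin heavy chain, fast troponins, muscle creatine kinase and parvalbumins, 21 identifiers) summed to 84517 to 103712 CPM in *Comephorus* and 97087 to 129053 CPM in *Batrachocottus*. Of these identifiers, limma called 7 higher in *Comephorus* and 6 in *Batrachocottus*. Identifiers were matched on any of their titles, here and in the other marker sums. Some therefore carry titles of other proteins too, such as DN69_c0_g1, which is also titled CHCHD3a. Hemoglobin, the oxygen carrier of red blood cells (9 identifiers), summed to 3131 to 3382 CPM in *Comephorus* and 734 to 1096 CPM in *Batrachocottus*, with 5 identifiers called higher in *Comephorus* and 1 in *Batrachocottus*. Of all 792 identifiers, 30.1% and 24.0% were called in these directions. Slow muscle titles (3 identifiers, none of them myoglobin) summed to 2109 to 2358 and 131 to 319 CPM, with 1 called higher in *Comephorus*, whereas the other 2 had higher values in both *Batrachocottus* libraries. The part of blood or slow fibres in the genus differences below was not tested, and in bulk muscle fewer cells of a type and less RNA per cell cannot be told apart.

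Muscle takes up long-chain fatty acids and carries them through the cytosol bound to small fatty acid-binding proteins, of which the heart type is the common form of heart and red muscle in vertebrates. A CoA ligase then activates the fatty acid to acyl-CoA. The acyl chain is shortened in the mitochondrion by the β-oxidation cycle, whose last step is catalysed by 3-ketoacyl-CoA thiolase. Carnitine O-acetyltransferase exchanges acetyl groups between CoA and carnitine and so buffers the acetyl-CoA that β-oxidation yields. Fatty acids that are not oxidized are esterified and kept in lipid droplets, which perilipin-2 coats. Of the fishes compared, *C. baicalensis* is known as a fat-rich species and *C. dybowski* as a lean one. In the paper *B. nikolskii* bears the common name fatty sculpin, but no fat content is given there for the benthic species.

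The 2 carrier identifiers had genus differences of opposite sign, of which 1 was called. TRINITY_DN2825_c0_g1 (the prefix is left out from here on) has heart fatty acid-binding protein as its single title among the titles read. Its pelagic values were 8.37 CPM (*C. dybowski*) and 8.45 CPM (*C. baicalensis*), and its benthic values 228 CPM (*B. nikolskii*) and 147 CPM (*B. multiradiatus*). Both benthic libraries thus lay at least 17.4 times above both pelagic ones, and the values of the *Comephorus* species could not be distinguished even by counting error (95% intervals of 7.63 to 9.17 and 7.69 to 9.27 CPM). On the log2(CPM + 1) scale, *Comephorus* minus *Batrachocottus*, the difference was -4.29 ± 0.75 (SE; limma, adjusted p = 0.0199).

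TRINITY_DN1992_c0_g1, which also carries the heart fatty acid-binding protein title, stood at 335 CPM (*C. dybowski*) and 914 CPM (*C. baicalensis*) in the water column, and at 13.4 CPM (*B. nikolskii*) and 99.3 CPM (*B. multiradiatus*) on the bottom. Here the pelagic libraries were the higher ones and the genera again did not overlap, but the benthic species were 7.41-fold apart. The difference of 3.87 ± 1.33 did not pass the test (limma, adjusted p = 0.0737, 95% interval 0.17 to 7.57). This identifier has 3 titles. Its transcript i1 is titled as the carrier, and transcripts i2 and i7 are titled as emerin, a protein of the inner nuclear membrane, and as an uncharacterized protein. These transcripts, like those of the other 2 members with several titles, lie far apart in the numbering of the joined assembly. The deposited values are per identifier and cannot be divided among these transcripts.

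When both identifiers were summed, the carrier came to 344 CPM (*C. dybowski*) and 922 CPM (*C. baicalensis*), against 242 CPM (*B. nikolskii*) and 246 CPM (*B. multiradiatus*). The sum turned the direction of the genus difference, from -4.29 for DN2825_c0_g1 alone to 1.20, and the lowest pelagic value stood 1.40 times above the highest benthic one. It also brought the benthic species to almost equal values, with a log2 difference of -0.03 where the single identifiers differed by 0.63 and -2.80 (*B. nikolskii* minus *B. multiradiatus*). DN2825_c0_g1 supplied 2.43% and 0.916% of the sum in *C. dybowski* and *C. baicalensis*, against 94.5% and 59.7% in *B. nikolskii* and *B. multiradiatus*. The sum counts all reads of DN1992_c0_g1, whichever of its titles they came from. The paper reports *FABP3* as higher in the benthic species, which was the direction of DN2825_c0_g1 and not that of DN1992_c0_g1 or of the sum. It also states that its qPCR on individual fish was in concordance with the sequencing. Which identifier the qPCR primers match was not tested here.

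**Figure D1:**
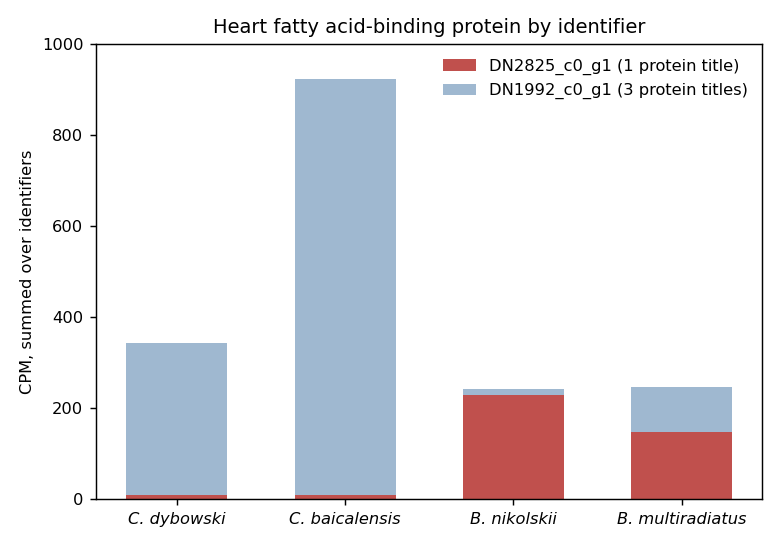
Stacked bars of CPM (linear axis from 0) for the identifiers titled heart fatty acid-binding protein, 1 bar per library. The benthic bars are made up mainly of DN2825_c0_g1 (94.5% and 59.7%) and the pelagic bars almost wholly of DN1992_c0_g1, while the totals run from 242 to 922 CPM.

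The activation step showed the widest genus difference of the members. The ACSBG2-like ligase, a CoA ligase of the bubblegum family (TRINITY_DN1041_c0_g1), reached 3405 CPM (*C. dybowski*) and 1448 CPM (*C. baicalensis*), while *B. nikolskii* held 2.39 CPM and *B. multiradiatus* 5.23 CPM. Even the nearest libraries of different genera, *C. baicalensis* and *B. multiradiatus*, were 277-fold apart. The log2 difference was 8.92 ± 0.89 (limma, adjusted p = 0.0128), rank 13 among the 406 identifiers with a positive difference. In this identifier, too, a second protein is titled: transcript i13 matches the ligase and transcript i10 matches lipoyl synthase, the mitochondrial enzyme that makes the lipoyl cofactor of pyruvate dehydrogenase. The 277-fold gap may therefore set ligase reads of some species against reads of another gene.

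The other identifiers with these titles were examined side by side. DN2254_c1_g1, also titled ACSBG2 (with casein kinase II subunit alpha and a RanBP2-related protein), went the other way, at 2.77 and 1.63 CPM (*C. dybowski*, *C. baicalensis*) against 36.0 and 21.4 CPM (*B. nikolskii*, *B. multiradiatus*; difference -3.19 ± 0.78, limma, adjusted p = 0.0338). DN1010_c0_g1, also titled lipoyl synthase (with a 26S proteasome regulatory subunit), was at 315, 227, 6.03 and 13.3 CPM in the same order (4.74 ± 0.82, adjusted p = 0.0199), the same order of species as DN1041_c0_g1. Summed over both ACSBG2 identifiers, the 4 libraries stood at 3408, 1449, 38.4 and 26.6 CPM, and the genus difference was 6.08 in place of 8.92 on the log2 scale. Which transcript of DN1041_c0_g1 the reads came from was not tested.

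At the thiolytic step, 3-ketoacyl-CoA thiolase (TRINITY_DN1338_c0_g1, a single title) was measured at 1779 CPM (*C. dybowski*) and 959.7 CPM (*C. baicalensis*), compared with 21.8 CPM (*B. nikolskii*) and 19.4 CPM (*B. multiradiatus*). The pelagic libraries were at least 44.1 times above the benthic ones, and the benthic species were within 1.12-fold of each other. The log2 difference was 5.92 ± 0.78 (limma, adjusted p = 0.0155).

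Carnitine O-acetyltransferase b (TRINITY_DN12857_c0_g1) was near equal in *C. dybowski* and *C. baicalensis*, at 197 and 187 CPM, and at or below 2.07 CPM in both benthic libraries. *B. multiradiatus*, at 0.288 CPM, rested on about 16 reads (95% counting interval 0.166 to 0.465 CPM). The genera were at least 90.5-fold apart, with a log2 difference of 6.60 ± 0.84 (limma, adjusted p = 0.0145). Transcript i2 bears the acetyltransferase title, and transcript i1 is titled SMYD1a, a muscle histone methyltransferase. Another identifier titled SMYD1a, DN1164_c1_g2 (also titled AH receptor-interacting protein), was higher in *Comephorus* too (33.7 and 112 CPM against 0.0510 and 2.48, limma, adjusted p = 0.0277). A further 2 had their highest values in *Batrachocottus* and were not called. These were DN1399_c0_g2 (also titled carboxypeptidase N and a U2AF splicing factor subunit) and DN2495_c0_g4 (a single title).

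Storage followed another pattern. Perilipin-2 (TRINITY_DN497_c0_g2, a single title) had 2.21 CPM (*C. dybowski*) and 30.8 CPM (*C. baicalensis*) in the pelagic pair, and 0.488 CPM (*B. nikolskii*) and 70.5 CPM (*B. multiradiatus*) in the benthic pair. Each genus held a low and a high species, so the genera overlapped and their difference was -0.03 ± 2.41 on the log2 scale (limma, adjusted p = 0.991, 95% interval -6.76 to 6.70). Its sign turned with a pseudocount of 0.1 (0.39). Keratins, epidermal proteins (7 identifiers), summed to 183, 589, 29.0 and 894 CPM in the same order of libraries, that is, in the same rank order as perilipin-2, although none of the 7 singly had that order. Of the 7 keratins, limma called 2 higher in *Comephorus* and 0 in *Batrachocottus* (30.1% and 24.0% of all 792). Their part in the perilipin-2 values was not tested. Perilipin-2 was the only perilipin title among the identifiers read, which held none for adiponectin, leptin or the adipocyte fatty acid-binding protein. The part of adipocytes was therefore not tested.

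**Figure D2:**
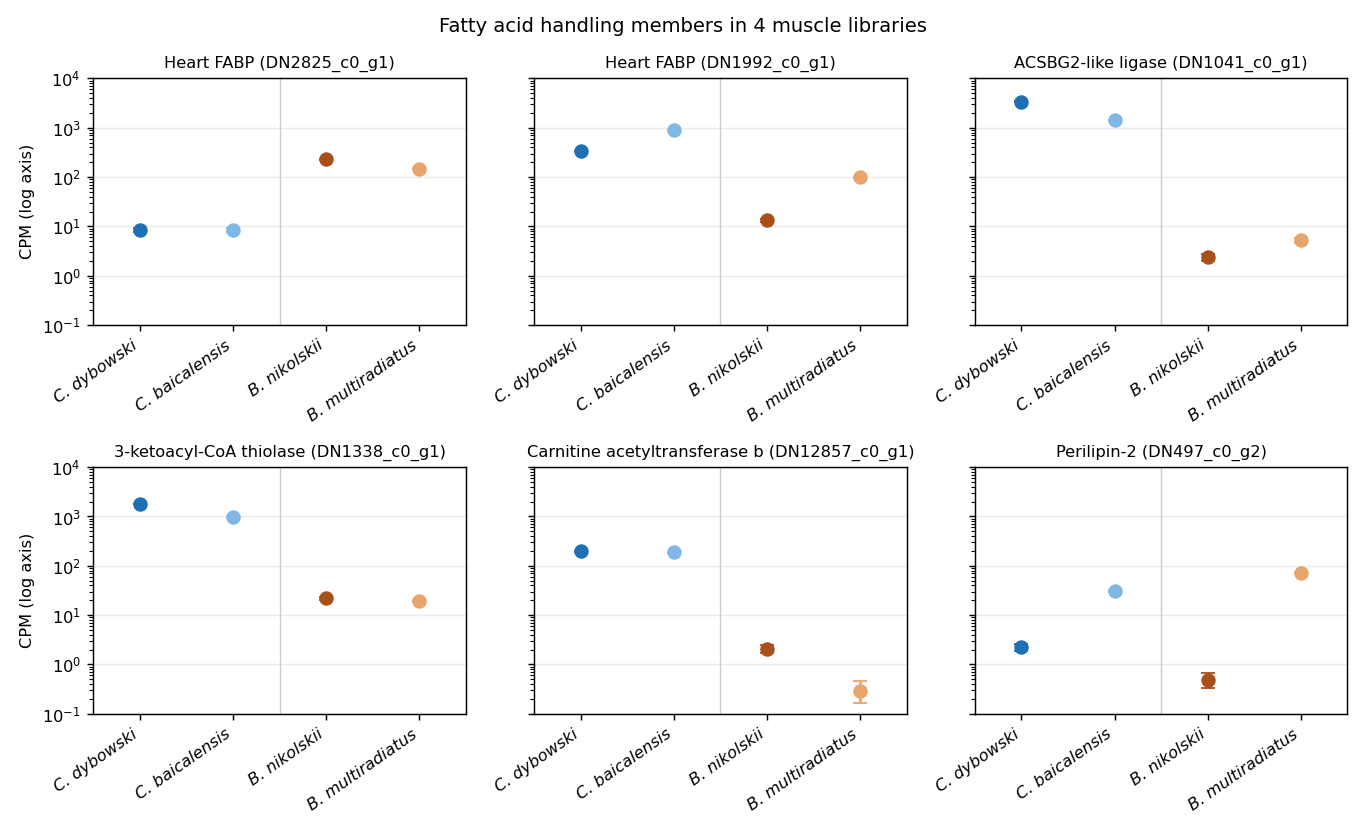
CPM on a log axis for each member in the 4 libraries (points, 1 library each; bars, exact 95% counting intervals, hidden by the point where narrow). The ligase, the thiolase and the acetyltransferase are high in both *Comephorus* libraries, DN2825_c0_g1 is high in both *Batrachocottus* libraries, and perilipin-2 splits each genus.

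Across the 6 members, limma called 4, where 54.0% of all 792 identifiers were called. The ligase, the thiolase and the acetyltransferase were the 3 called higher in *Comephorus* (30.1% of all), and DN2825_c0_g1 was the 1 called higher in *Batrachocottus* (24.0% of all). Ranges of the genera did not overlap for 5 of the 6 (84.5% of all), 4 with *Comephorus* above (44.6%) and 1 with *Batrachocottus* above (39.9%), and the median difference was 4.89 for the members and 1.40 for the 792. On the deposited counts, which list 4 of the members for both genera, edgeR's quasi-likelihood test called 3 of the 4, and 9.21% of the 4755 identifiers tested (5.01% higher in *Comephorus* and 4.21% in *Batrachocottus*). These were DN1041_c0_g1 (9.27 ± 1.09, adjusted p = 0.0216), DN1338_c0_g1 (6.07 ± 0.71, adjusted p = 0.0213) and DN2825_c0_g1 (-4.43 ± 0.56, adjusted p = 0.0230), and DN1992_c0_g1 was not called (3.42 ± 1.24, adjusted p = 0.142). For edgeR, the value after ± is the size of the log2 difference divided by the square root of the test's F statistic. DESeq2 on the same counts called DN1992_c0_g1 as well (adjusted p = 0.00139), with 38.0% of the 4755 called. The 4755 identifiers were not chosen for a difference between species, as the members were, so shares of them are not a like base. On reads recovered from CPM, edgeR called the same 4 members as limma, and 30.6% of all identifiers (17.8% higher in *Comephorus* and 12.8% in *Batrachocottus*).

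The calls rest on 4 libraries. When *B. nikolskii*, or either of the *Comephorus* libraries, was left out, the 4 member calls of limma were lost, as were those of all other identifiers. Without *B. multiradiatus* limma called the 4 members and 39.9% of all identifiers, whereas edgeR on counts called none of the 4755 without either benthic library (1441 without *B. multiradiatus* and 1274 without *B. nikolskii* at an unadjusted p under 0.05). In such fits a genus is a single library, which is assumed to vary as the species of the other genus do. With each library left out in turn, limma's log2 differences ranged from 8.30 to 9.53 for the ligase, 5.48 to 6.37 for the thiolase, 5.97 to 7.23 for the acetyltransferase and -4.61 to -3.98 for DN2825_c0_g1.

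Between the pelagic species, with 1 library each and therefore no test, perilipin-2 alone of the 6 members was at least 4-fold apart on the log2(CPM + 1) scale, where 26.5% of the 792 identifiers were (14.1% higher in *C. baicalensis*, 12.4% in *C. dybowski*). By edgeR's exact test with an assumed dispersion, 15.4% of all were called and no member. Its value in *C. baicalensis* was 13.9 times that in *C. dybowski* (counting interval 11.6 to 16.8). The carrier identifier DN1992_c0_g1 was 2.73-fold higher in *C. baicalensis*. The ligase was 2.35-fold and the thiolase 1.85-fold higher in *C. dybowski*. The acetyltransferase and DN2825_c0_g1 were close to equal, at ratios of 1.05 and 0.990 (*C. dybowski* over *C. baicalensis*). In these libraries the droplet coat was therefore higher in *C. baicalensis*, and the ligase and thiolase identifiers higher in *C. dybowski*. The carrier sum was also higher in *C. baicalensis*, but it came almost wholly from DN1992_c0_g1, which has 3 titles. Counting intervals cover neither the spread between fish nor that between pools.

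Between the benthic species, 2 of the 6 members were at least 4-fold apart, against 30.2% of all identifiers (13.1% higher in *B. multiradiatus*, 17.0% in *B. nikolskii*). The exact test called 16.3% of all and, of the members, perilipin-2 only. Both 4-fold members were higher in *B. multiradiatus*: DN1992_c0_g1 by 7.41-fold (counting interval 6.91 to 7.95) and perilipin-2 by 144-fold (103 to 210). The value of perilipin-2 in *B. nikolskii* comes from about 33 reads. DN2825_c0_g1 was 1.55-fold higher in *B. nikolskii*, the ligase identifier 2.19-fold higher in *B. multiradiatus*, and the thiolase 1.12-fold higher in *B. nikolskii*. The acetyltransferase was 7.19-fold higher in *B. nikolskii* (4.30 to 12.8), a ratio of levels so low that it came to 1.25 on the log2(CPM + 1) scale.

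**Figure D3:**
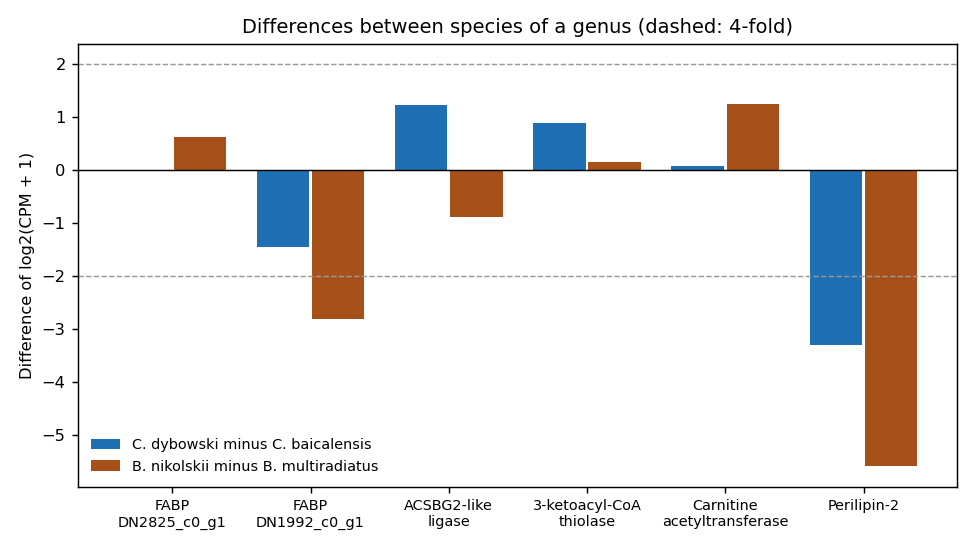
Difference of log2(CPM + 1) between the species of a genus for each member (bars; blue, *C. dybowski* minus *C. baicalensis*; brown, *B. nikolskii* minus *B. multiradiatus*; dashed lines, 4-fold). Perilipin-2 passes the 4-fold line in both genera (-3.30 and -5.59) and DN1992_c0_g1 in *Batrachocottus* (-2.80).

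The species order differed by step. *C. dybowski* held the highest value of 3 members (ligase, thiolase, acetyltransferase), and *C. baicalensis*, *B. nikolskii* and *B. multiradiatus* that of 1 each (DN1992_c0_g1, DN2825_c0_g1 and perilipin-2). *B. nikolskii* was lowest for 3 (DN1992_c0_g1, the ligase and perilipin-2). By Euclidean distance between profiles of log2(CPM + 1) centred on their mean over the 4 libraries, the thiolase and the acetyltransferase were the most alike (1.18), and DN2825_c0_g1 and the ligase the least (13.3).

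Other genes of the pathway were taken from a list of 16 further identifiers, of which 12 carry several titles. Of the 16, limma called 3 with higher values in *Comephorus* and 4 with higher values in *Batrachocottus*, whereas 9 did not pass the test (30.1%, 24.0% and 54.0% of all 792 were called in these directions and in either). The share called in the list was thus not above that of all identifiers. The median difference was -2.65, against 1.40 over all 792. Among the 4 with a single title, 1 was called.

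Among further carriers, brain-type fatty acid-binding protein 7a (DN33667_c0_g1, with 2 other titles) had 3.13 and 0.348 CPM (*C. dybowski*, *C. baicalensis*) against 79.5 and 112 CPM (*B. nikolskii*, *B. multiradiatus*; -5.34 ± 0.93, limma, adjusted p = 0.0199). Sterol carrier protein 2, which binds sterols and fatty acyl-CoA (DN32_c0_g1, with 2 other titles), was at 7.48, 394, 3108 and 1498 CPM in the same order. Both benthic values were the higher ones, but the pelagic species were far apart and the difference was not called (adjusted p = 0.105).

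For activation, long-chain fatty acid-CoA ligase 1a, an enzyme of acyl-CoA synthesis in muscle (DN1079_c0_g1, with 3 other titles), had 40.2 and 48.6 CPM in the pelagic species, against 1.59 (*B. nikolskii*) and 27.0 (*B. multiradiatus*; adjusted p = 0.202). Cytoplasmic acetyl-CoA synthetase, which activates acetate (DN2180_c0_g1, also titled exosome component 10), was at 182 CPM in *C. dybowski* and at or below 1.76 in the other 3 libraries (adjusted p = 0.266).

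The identifiers of the oxidation list did not share a direction. Those with higher mean values in *Batrachocottus* all carry several titles. The list's identifier with a single title was higher in *Comephorus*, as was the thiolase (DN1338_c0_g1). The ligase and acetyltransferase members, called higher in *Comephorus*, carry several titles too, and the single-title DN2825_c0_g1 was higher in *Batrachocottus*. Over all related lipid genes, the 4 with a single title were higher in *Comephorus* for 2 and in *Batrachocottus* for 2. The 2,4-dienoyl-CoA reductase, an auxiliary enzyme for unsaturated chains (DN34_c0_g3, a single title), was at 33.1 and 22.8 CPM in *C. dybowski* and *C. baicalensis*, at 1.15 in *B. nikolskii* and listed at 0 in *B. multiradiatus*, where 3 reads would be 0.0526 CPM (4.28 ± 0.83, limma, adjusted p = 0.0217). Medium-chain acyl-CoA dehydrogenase, which opens the cycle (DN1002_c0_g1, which bears 3 further titles), had 54.3 and 45.6 CPM in *Comephorus* against 1066 and 626 CPM in *Batrachocottus* (-4.01 ± 0.77, adjusted p = 0.0214). Cytosolic acetyl-CoA acetyltransferase, an enzyme of sterol precursor synthesis (DN18_c0_g1), was also higher in *Batrachocottus* (9.52 and 33.2 against 359 and 519 CPM, adjusted p = 0.0246). That identifier further bears a fast skeletal myosin heavy chain title among others. The dienoyl-CoA isomerase of the mitochondrion (DN463_c0_g1, 4 titles, among them phosphoglycerate mutase 2) stood at 236 and 18.7 CPM in the benthic libraries (*B. nikolskii* first). Its pelagic values were 11.2 and 8.07 CPM (*C. dybowski* first). The peroxisomal succinyl-CoA thioesterase (DN349_c0_g1, 3 titles, among them a cardiac troponin T) had benthic values of 37.6 and 3.41 CPM. Its pelagic values were 7.9 and 1.53 CPM in the same orders. Neither was called between the genera (adjusted p = 0.179 and 0.402).

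Among genes of lipolysis and its control, none had genera that overlapped as those of perilipin-2 did. The genera did not overlap for 84.5% of all 792 identifiers either. G0/G1 switch protein 2, an inhibitor of adipose triglyceride lipase in mammals (DN5205_c0_g2, a single title), had 0.845 and 9.05 CPM (*C. dybowski*, *C. baicalensis*) against 233 and 42.6 CPM (*B. nikolskii*, *B. multiradiatus*; -4.55 ± 1.42, limma, adjusted p = 0.0581). It was thus highest in the species where perilipin-2 was lowest, but within *Comephorus* both identifiers were higher in *C. baicalensis*. The lipase of N-acylphosphatidylethanolamines (DN1823_c0_g1, also titled Elk-3) reached 2661 CPM in *B. multiradiatus*, against 82.2 to 325 CPM elsewhere (adjusted p = 0.183). Patatin-like phospholipase domain-containing protein 6, a lysophospholipase (DN29414_c0_g1, with 2 other titles), was higher in *Comephorus*, at 23.7 and 14.6 against 1.13 and 0.165 CPM (adjusted p = 0.0279). The nuclear receptor PPAR delta b, a fatty acid sensor that drives oxidation genes in mammalian muscle (DN358_c1_g1, a single title), had 2.02 and 1.61 CPM in *Comephorus* against 36.9 and 11.1 CPM in *Batrachocottus* (-2.93 ± 0.93, limma, adjusted p = 0.0607). On counts edgeR called it (-3.64, adjusted p = 0.0488). This gene was named after its values were seen, and edgeR results of the other related genes are not given here.

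In mitochondrial fatty acid synthesis, which supplies the precursor of the lipoyl cofactor, the enoyl reductase (DN2757_c0_g1, also titled as a LysM domain protein) was at 23.4 and 12.5 CPM in *Comephorus* and 1.15 and 1.96 CPM in *Batrachocottus* (2.85 ± 0.79, limma, adjusted p = 0.0442). The 3-oxoacyl synthase of the same pathway (DN34650_c0_g1, a single title) was at 174, 200.3 and 101 CPM in *C. dybowski*, *C. baicalensis* and *B. nikolskii* and at 3.06 in *B. multiradiatus* (adjusted p = 0.189).

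**Figure D4:**
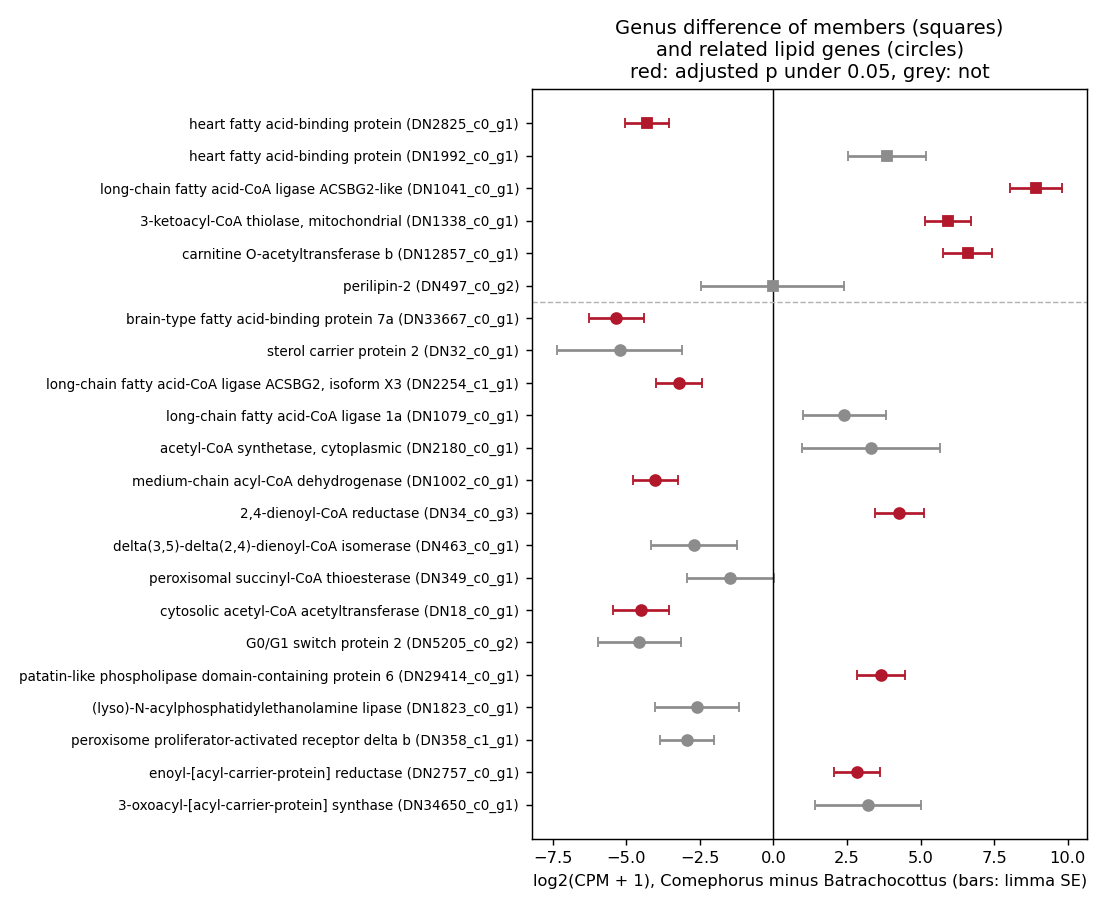
Genus difference of log2(CPM + 1), *Comephorus* minus *Batrachocottus*, for the 6 members (squares) and 16 related lipid genes (circles), with limma's SE as bars and calls at an adjusted p under 0.05 in red. Of the members, 3 lie on the positive side in red and 1 on the negative side, and the related genes are called on both sides (3 and 4).

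The lipoprotein carriers, which move lipid between tissues, were represented by 4 identifiers. Within *Comephorus* 2 of them were at least 4-fold apart (26.5% of all identifiers were), within *Batrachocottus* the other 2 (30.2% of all), and limma called none between the genera (54.0% of all), with 0 at an unadjusted p under 0.05. Apolipoprotein A-II (DN11993_c1_g1) was at 50.9 CPM in *B. nikolskii* and at or below 3.49 elsewhere. The liver titles, that apolipoprotein and a vitellogenin, summed to 1407 CPM in *B. nikolskii* and to 3.01 to 5.17 CPM in the other 3 libraries, and the part of blood or liver RNA was not tested. Each of the 3 apolipoprotein Eb identifiers was highest in another species: DN1401_c0_g1 in *C. dybowski* (32.9 CPM), DN45_c1_g1 in *C. baicalensis* (161 CPM) and DN4239_c0_g3 in *B. multiradiatus* (122 CPM).

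For each member, the titled identifiers with the nearest centred profile over the 4 libraries were sought among 651. DN2825_c0_g1 was closest to cytoplasmic malate dehydrogenase (DN4529_c0_g2, distance 0.25), which shuttles reducing equivalents, and to DN9012_c0_g2 (ribosomal protein L36 and cystinosin, 0.29). DN1992_c0_g1 lay nearest to a mitochondrial complex I subunit, NDUFAB1b (DN2128_c0_g2, 0.94), and to DN4312_c0_g2 (kelch protein 41b and SFT2C, 0.97). The ligase was nearest to DN24_c0_g1 (a branched-chain keto acid dehydrogenase kinase and ribosomal protein L22, 0.82) and to DN1711_c0_g1 (calumenin-A and NDRG3, 0.88). For the thiolase these were DN1778_c0_g1 (the FAU ribosomal fusion protein and STK11, 0.42) and an initiation factor 3 subunit (DN4153_c0_g2, 0.46). The acetyltransferase resembled DN1021_c0_g1 (ribosomal protein L34 with 2 other titles, 0.35) and DN69_c0_g1 (CHCHD3a and fast myosin heavy chain, 0.54). Perilipin-2 had no close match: its nearest were a ganglioside-forming glycosyltransferase (DN77_c1_g1, 1.45) and DN57_c0_g2 (dachshund homolog 1 and a mannose-specific lectin, 1.53). With 4 libraries and a table chosen for differences between species, these likenesses are descriptions only.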

How the data were processed

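Skeletal muscle RNA of 4 species was sequenced, with 1 pooled library each. The authors trimmed reads (Trimmomatic 0.36, per the labels), assembled each species with Trinity, clustered the joined assemblies with CD-HIT, and estimated reads per gene identifier with Salmon. The deposited estimated counts are whole numbers without normalization and are listed for a genus only where both libraries exceed about 1 CPM. The deposited CPM values, made by the authors with edgeR 4.0.3, use library sizes adjusted by TMM and cover 792 identifiers. Reads recovered from low CPM values were mostly fractional (21.1% to 24.1% within 0.1 of a whole number).

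limma 3.58.1 was fitted to log2(CPM + 1) over all 792 identifiers and edgeR 4.0.16 (quasi-likelihood, TMM) to the counts of the 4755 identifiers listed for both genera, in R 4.3.3, with Benjamini-Hochberg adjustment and calls under 0.05. Alternatives were DESeq2 1.42.0, other pseudocounts (0.1 and 10) and library sizes, a filter at 1 CPM in 2 libraries, edgeR's exact test with a dispersion of 0.2 (adjusted p under 0.001) and leaving out each library. The edgeR fit on reads recovered from CPM, and the count over single-title identifiers, were added after seeing the data. Fits were tested on simulated data in which most identifiers had no genus difference. The 792 identifiers were chosen for differences between species, so those runs give no error rate for them. Nothing in the labels says that libraries were replicated, so p-values measure the spread between the species of a genus.

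The members and lists were chosen with earlier results of these data known. All members are named, further list identifiers where limma called them or a species pair was at least 4-fold apart (other lists' genes for comparison), and for each member the 2 nearest titled profiles. PPAR delta b was named outside this rule, after its values were seen. Titles cover 657 identifiers, 336 of them with several proteins. The copy of the title table was shortened, so no set test was run. Further titles may have been cut from it, so a single title means a single title among those read. Counting intervals treat the estimates as reads and cover counting error only. Genome positions were not used here.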

Additional observations from a re-analysis of the deposited data

How the results depend on the processing

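The limma calls of 4 members were also made with pseudocounts of 0.1 and 10 (50.9% and 47.9% of all identifiers called). The same held with the filter on low values (54.6% called) and by edgeR on recovered read estimates (30.6%). A fit without 1 library leaves a genus with a single library, and member calls were lost in part of these fits, by limma and by edgeR. The log2 differences of edgeR on counts then ranged from 8.59 to 10.1 for DN1041_c0_g1 and 5.60 to 6.41 for DN1338_c0_g1. They ranged from 2.45 to 5.72 for DN1992_c0_g1 and -4.60 to -4.22 for DN2825_c0_g1. DESeq2, and edgeR with unlisted identifiers set to 0, called all 4 listed members, with 38.0% and 76.7% of all identifiers called, and edgeR with DESeq2's size factors 3 (9.23%). These shares are over identifiers of the counts, which were not chosen for a difference as the members were. The genus difference of perilipin-2 reversed from -0.03 to 0.39 with a pseudocount of 0.1, and ranged from -2.82 to 2.76 with a library left out. The summed carrier reversed from 1.20 to -4.29 when the identifier with a single title was taken alone. Within *Comephorus*, 0 members were 4-fold apart with a pseudocount of 10 (16.9% of all identifiers) and 0 by the exact test with an assumed dispersion (15.4% of all identifiers called). Within *Batrachocottus* the counts were 1 on totals of the count files, which list 4 members (9.01% of the 10189 listed), and 1 by the exact test (16.3%), with 3 at a pseudocount of 0.1 (37.6%). Over the related genes, 1 of 4 with a single title was called, against 7 of 16. No paired analysis was possible because the labels give the libraries of the genera no shared numbers. Benthic values of the acetyltransferase identifier, and perilipin-2 in *B. nikolskii*, rest on about 16 to 141 reads.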
